A study of Drosophila melanogaster with 2 samples.

Results

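The genes for factors that bind or recruit to Polycomb response elements were examined in a map of open chromatin of Drosophila S2 cells, which were derived from late embryos and resemble the blood cells (hemocytes) of the fly. The members were 10 genes, pho, phol, Sfmbt, Spps, cg, Trl, psq, lolal, Dsp1 and grh, and their sites were the peak lines whose summit fell in the annotated gene or in the 5 kb on either side of it. This gave 164 of 35535 summits, and no summit counted for more than 1 member. The series belongs to a study of proteins that inhibit PRC2, a Polycomb complex, and had 1 group of 2 ATAC-seq libraries of S2 cells, each from 2000000 cells cultured at 25°C and tagmented with Tn5, a transposase that inserts adapters into accessible DNA. The labels named no mutation, transgene or treatment, and did not say whether the 2 libraries came from separate cultures. The files held 1 peak list for the series, so no value below has a replicate error and no comparison between samples was made.

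Polycomb response elements are the stretches of fly DNA through which Polycomb complexes reach their target genes, where they keep transcription off through cell divisions. The complexes that modify histones, PRC1 and PRC2, do not read these elements by themselves, and DNA-binding proteins bring them there. Pho, its partner Sfmbt, the GAGA factor encoded by Trl, and zinc-finger, BTB-domain and HMG-box proteins take part in this step, and several of them also act at active promoters.

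A summit is described by its pileup, the number of overlapping fragments counted there by the peak caller, and by its fold enrichment, the authors' own value for each peak, which is the pileup over the local background with 1 added to each. The pileup and the background were recovered from the deposited columns for 35535 of 35535 summits, and the background was never below its genome-wide value of 9.91 fragments. Each pileup interval given in parentheses is an exact 95% Poisson interval and covers counting error only. The list does not give the libraries' total depth. Over the whole list the median pileup was 56 (quartiles 33 and 109) and the median fold 3.61.

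A summit in the gene region, the condition of membership, was found for 10 of the 10 genes and for 88.0% of the 13946 protein-coding genes. All 10 genes had a peak within 250 bp of at least 1 annotated end, against 60.4% of protein-coding genes, and the difference was not tested. Only psq had a peak at both ends, and both ends were open in 11.7% of protein-coding genes. At the right end of psq the interval reached the window, but its summit lay 309 bp past the end. Because the gene table gives no strand, an end may be the start or the finish of a gene. Only the outermost ends of each gene were known, so a site inside a gene may lie at an end of a shorter transcript. The highest end peak also lay within 250 bp of an end of another gene for 8 of the 10, all but pho and phol. Such a peak cannot be assigned to either gene. No share over all protein-coding genes is given for this count, so whether 8 of 10 is unusual cannot be said.

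The strongest site in the region of most of these genes was high among all genes, though for several it lay at a neighbour. The highest pileup in the gene region reached 200 or more for 8 of the 10, against 24.1% of protein-coding genes, and the median over the 10 was 331.5, against 137 over the 12270 protein-coding genes that had a summit. A fold of 10 or more was reached by 9 of the 10, against 43.7% of protein-coding genes. Inside the gene itself, with no flank, 5 of the 10 (cg, Trl, psq, lolal and grh) reached 200 fragments, against 7.06% of protein-coding genes, and 4 reached a fold of 10, against 9.97%. With the flanks but without summits inside another protein-coding gene, cg, Trl, psq, lolal and grh reached 200 and 6 reached a fold of 10. The median of the highest pileup was then 208. No value over all genes is given with this filter, so these cannot be set against the shares and median above. These genes were also longer, with a median span of 8.14 kb against 2.16 kb over all protein-coding genes. The part of gene length in these counts was not tested.

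In order of their highest pileup the genes were lolal with 486 (444 to 531), grh with 422 (383 to 464), psq with 382 (345 to 422), Trl with 374 (337 to 414), Sfmbt with 350 (314 to 389), cg with 313 (279 to 350), Spps with 307 (274 to 343), Dsp1 with 263 (232 to 297), pho with 137 (115 to 162) and phol with 115 (94.9 to 138). Neighbours in this order had overlapping intervals, apart from Dsp1 and pho. The top value lay inside the gene for 6 members, and in a flank for the other 4, pho, Sfmbt, Spps and Dsp1.

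**Figure D1:**
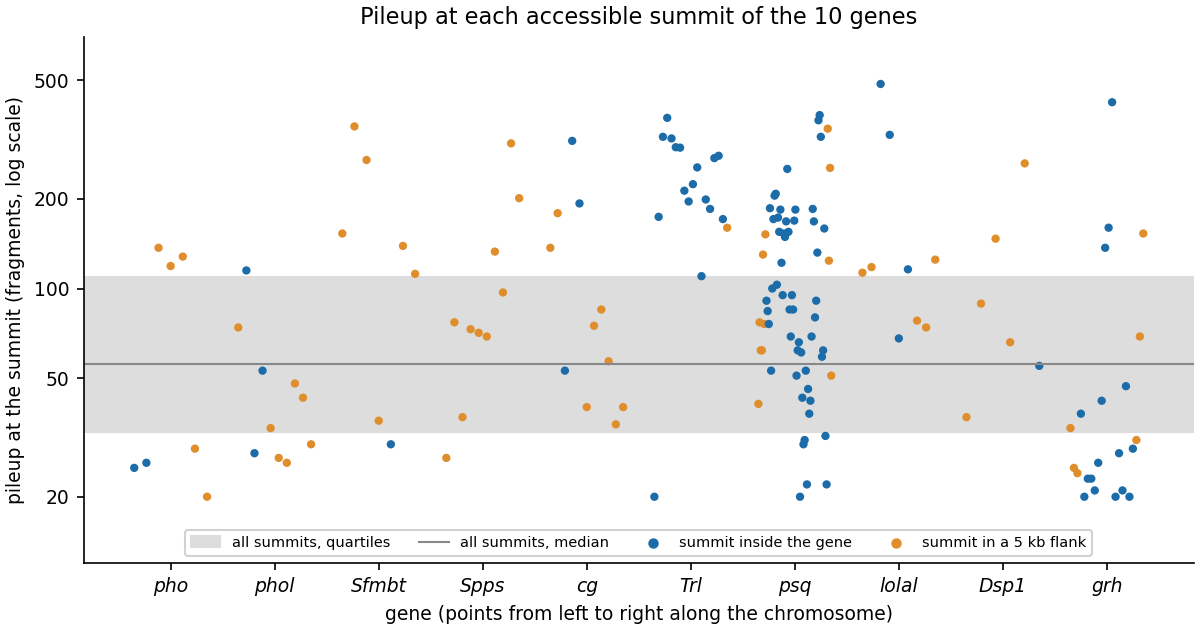
Pileup (fragments, log scale) at each of the 164 summits, by gene, with blue points for summits inside the gene and orange points for summits in the 5 kb flanks; the grey band spans the quartiles of all 35535 summits and the line is their median of 56. The summits of Trl inside the gene sit at 110 or more except for 1 at 20, whereas grh has 1 summit at 422 above a majority near the lower edge of the band.

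The Pho repressive complex was represented by pho and Sfmbt, with phol as the paralog of pho. The gene pho (chr4:1172469-1181628, dm6), which encodes the fly relative of YY1 that binds DNA in this complex, had 7 summits. The 3 high ones had pileups of 137, 119 and 128 and lay between 36 and 428 bp past the right annotated end. The other 4 were between 20 and 29, and none was found in the 8.38 kb that make up most of the gene from its left end. The local background was at the genome-wide value at 7 of 7 summits, so the modest pileup of 137 still gave a fold of 12.6. No other protein-coding gene began or finished within 250 bp of these summits.

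The gene phol (chr3L:9452803-9456281), whose protein shares the zinc-finger DNA-binding domain of Pho, had 10 summits and the lowest top value of the set. Its highest summit, at 115 fragments and a fold of 10.0, lay inside the gene, 694 bp from the right end. Nearer to that end were summits of 28 and 53 fragments, and 6 bp past it lay 1 of 34. The remaining sites were at neighbouring genes, such as the 74 fragments found 24 bp from an end of ghi. The intervals of phol (94.9 to 138) and pho (115 to 162) overlapped, so counting error alone does not separate the top sites of these paralogs.

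Sfmbt (chr2L:13169649-13176785) encodes the MBT-repeat protein that joins Pho in the complex and reads methylated histones. Its right end carried a summit of 139 fragments (117 to 164) at a fold of 10.3, placed 43 bp past the end and inside the small gene CG43925. The only summit inside Sfmbt had 30 fragments, and the 6.75 kb from its left end to that summit held no other. The 350 fragments that gave Sfmbt its place in the order lay 4108 bp beyond the left end, 23 bp from an end of Sirt1 and inside DnaJ-H. Without summits inside other protein-coding genes the highest value of Sfmbt was 30.

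Among the zinc-finger genes, Spps and cg differed in where their sites lay. Spps (chr3R:24223445-24226934) encodes an Sp1/KLF-family protein that binds response elements, and it was the only member with no summit inside the gene; a summit inside was found in 9 of the 10 members and in 43.9% of protein-coding genes. The site nearest to it had 133 fragments (111 to 158) and a fold of 8.11, and lay 44 bp past the right end in the short gap to CG13609, whose end was also within 250 bp. Of its other 9 summits, 6 lay on the left in twin and cav with 27 to 77 fragments. The other 3 lay on the right, around the end of mask, with 97, 307 and 201 fragments, and the highest value in the region was therefore found 3918 bp from Spps itself.

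The gene cg (chr2R:14173693-14182838) encodes Combgap, a zinc-finger protein that recruits Polycomb proteins and was first known from leg and wing patterning. Of its 11 summits the strongest were around the left end. A summit of 179 fragments (154 to 207) lay 57 bp before that end and 40 bp from an end of mRpS16, a mitochondrial ribosomal protein gene. Inside followed summits of 53, 313 and 193 fragments, at 296, 1125 and 1873 bp from the left end. The strongest, with a fold of 11.6, was thus an internal site, and the remaining 7.27 kb of the gene held no summit. Past the right end, 1280 to 3924 bp away and near or inside Sdb, lay 6 weaker summits of 40, 75, 85, 57, 35 and 40 fragments.

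The BTB-domain genes Trl, psq and lolal carried the highest internal sites together with grh. Trl (chr3L:14747929-14761049) encodes the GAGA factor, which binds GA-rich DNA at response elements and at promoters. Of its 18 summits, 17 lay inside the gene and 16 of those were packed in 5.17 kb of its right part, in 6 intervals. The pileups of these 16 ran from 110 to 374 with a median of 239.5, and each was above the upper quartile of the whole list. Of the 18 summits of Trl, 9 lay inside CG42507 as well, the strongest of 374 among them. Without those the highest value of Trl was 279, at a fold of 4.54. At the left annotated end, which Trl shares with CG42507, the only peak had 20 fragments, a fold of 1.92 and a −log10 q of 1.40, just over the lowest value in the list (1.30). The left end was the only end of Trl with a peak, and over 7.12 kb from there no summit was found.

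Pileup and fold ranked Trl differently, and its local background was the highest of the set. By pileup Trl ranked 4 of 10, and by fold it ranked 10 of 10, with a top fold of 6.08 that was above the top folds of only 28.9% of protein-coding genes. The 16 packed summits had backgrounds from 57.1 to 64.6 fragments, and only 1.32% of all summits had a background at or above the median at Trl, 62.2. The background was local to the gene: the 2 summits in the next 10 kb on either side of the region were at the genome-wide value, and among the 51 summits in the next 100 kb it did not pass 19.3. Neighbouring summits inside Trl were a median of 134 bp apart, against 238.5 bp in phol, 243 bp in lolal, 262 bp in psq and 391 bp in pho. The highest backgrounds in the regions of those genes, flanks included, were 11.5, 27.6, 44.4 and 9.91 fragments. In cg and grh the summits were 788.5 and 1861 bp apart, with highest backgrounds of 26.2 and 17.4 in their regions. The spacing rests on only 2 summits inside pho, 3 inside phol and 3 inside cg. The series has no input library, so the local background may draw on the same fragments as the pileups around it. Spacing, pileup and background are therefore not separate measures, and a relation between them was not tested.

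**Figure D2:**
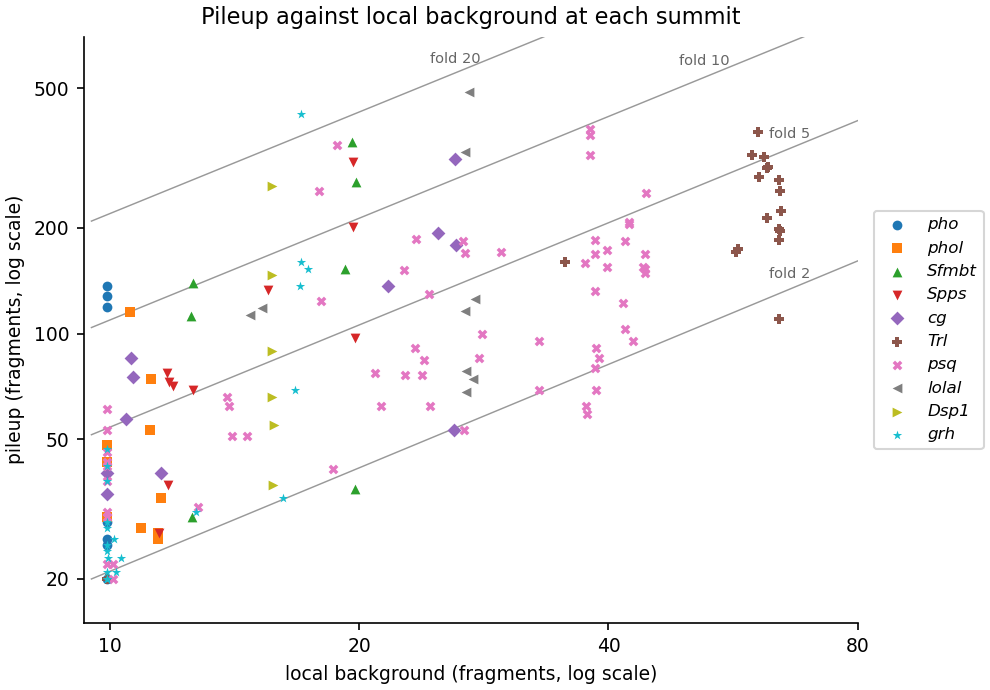
Pileup against local background (fragments, log scales) at each of the 164 summits, with 1 marker per gene and grey lines at equal fold. Of the 18 summits of Trl 16 stand apart at backgrounds of 57.1 and more with folds of at most 6.08, the other 2 being at 9.91 and 35.5, while those of pho lie on the left edge at the genome-wide value of 9.91.

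The gene psq (chr2R:10557888-10617280) encodes Pipsqueak, a BTB-domain protein that binds the same kind of GA-rich DNA as the GAGA factor. It was the longest member, at 59.4 kb, and held 64 summits in 37 intervals, or 39.0% of the 164. By the number of summits in its region psq was 18th among the 13946 protein-coding genes, and its 9.22 summits per 10 kb were above those of 96.3% of them. Of its 37 intervals 18 had several summits, up to 5, and the intervals covered 14.2% of the region, the highest share of the 10 genes.

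The sites in psq came in blocks. In the 15 kb from the left end lay 26 summits with pileups of 53 to 252, a median of 151 and backgrounds of 23.4 to 44.4. Between 15 and 40 kb there were 13 weaker summits, of 20 to 66 fragments, with backgrounds of 9.91 to 14.0. Between 40 and 50 kb followed 12 summits within 4.68 kb, with pileups of 59 to 382, and past 50 kb only 2, of 32 and 22 fragments. The highest pileup of the gene, 382 at a fold of 9.83, belonged to the third block and lay 15.4 kb from the nearer end. The highest fold was elsewhere, at 17.4 for a summit of 344 fragments (309 to 382) 309 bp past the right end and 73 bp from an end of CG11883. At the left end the highest peak had 152 fragments and lay 246 bp outside the gene.

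The gene lolal (chr2R:18154095-18158192) encodes a short protein made of little more than a BTB domain, which associates with the GAGA factor. It was among the smaller members, at 4.10 kb, and had the highest pileup of all 10, 486 (444 to 531) at a fold of 17.3, above the top values of 98.2% of protein-coding genes. This summit and a second of 328 fragments shared 1 interval inside the gene, 1231 and 1079 bp from the right end. Summits of 68 and 116 fragments followed towards that end, and the end itself had 78 fragments (61.7 to 97.3) at 53 bp, next to CG10914. As in Trl, the strongest site of lolal was therefore not within 250 bp of an annotated gene end. The gene lolal has 8 annotated transcripts and Trl has 10, and the ends of the shorter ones were not known. The other 4 flanking summits, at CG5742, adp, CG10914 and Naus, had 113, 118, 74 and 125 fragments.

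Dsp1 (chrX:16333612-16340624), which encodes an HMG-box protein that bends DNA and acts at response elements, had the fewest summits, 6. The highest, with 263 fragments (232 to 297) at a fold of 15.8, lay 71 bp before the left end and inside CG9921. The other 4 summits on that side had 37, 89, 147 and 66 fragments and were inside CG9921 too. Within Dsp1 there was 1 summit, of 55 fragments, and none in the 5.18 kb up to the right end. The highest site of Dsp1 was therefore at its left boundary, which it shares with a neighbour. The other summits on that side lay 451 to 1526 bp before the left end, and the summit within Dsp1 lay 1829 bp from it.

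The gene grh (chr2R:17801132-17842820) encodes Grainyhead, known above all as a regulator of epidermal genes, which also binds response elements. Its 22 summits were weak apart from a few. In the interval that held the strongest, 3 summits had 137, 160 and 422 fragments (383 to 464 for the last) and lay 21.2 to 21.5 kb from the left end, near the middle of the 41.7 kb gene. The fold of 23.5 at the last of these was the highest of the 164 summits and above the top folds of 98.9% of protein-coding genes. The other 13 summits inside grh had 20 to 47 fragments with a median of 23, below the lower quartile of the whole list. Its ends were barely marked, with a top pileup of 25 (16.2 to 36.9) at the left end and no peak within 250 bp of the right end. The left peak lay between grh and its neighbour Dhit.

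**Figure D3:**
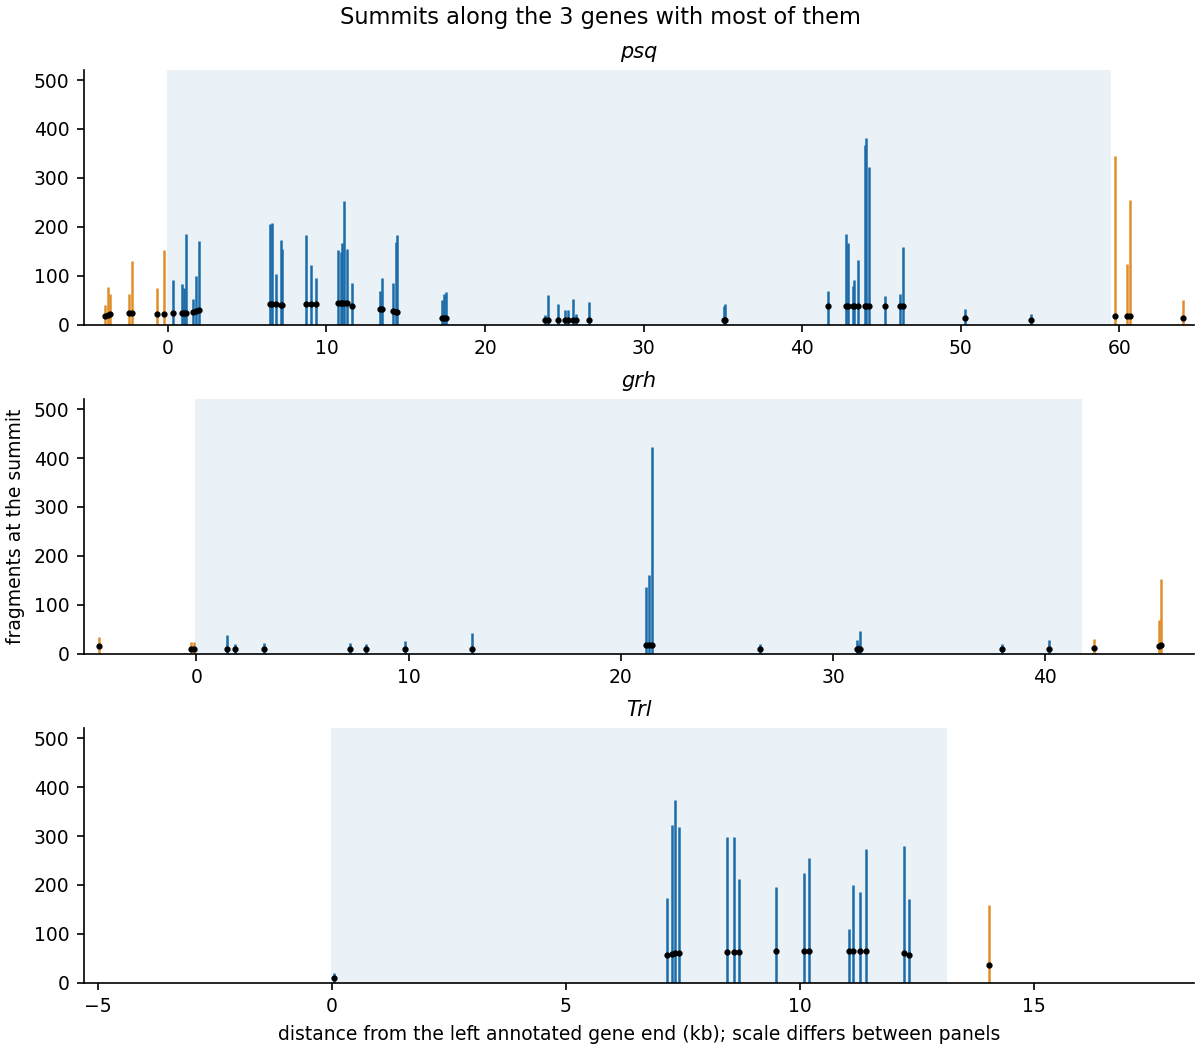
Pileup (vertical lines) and local background (black dots), both in fragments, at the summits of psq, grh and Trl against the distance in kb from the left annotated gene end; the shaded span is the gene, blue lines are inside it and orange lines in its 5 kb flanks. The sites of psq form blocks, grh has 1 tall interval near its middle reaching 422, and 16 of the 18 summits of Trl stand within 5.17 kb.

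**Figure D4:**
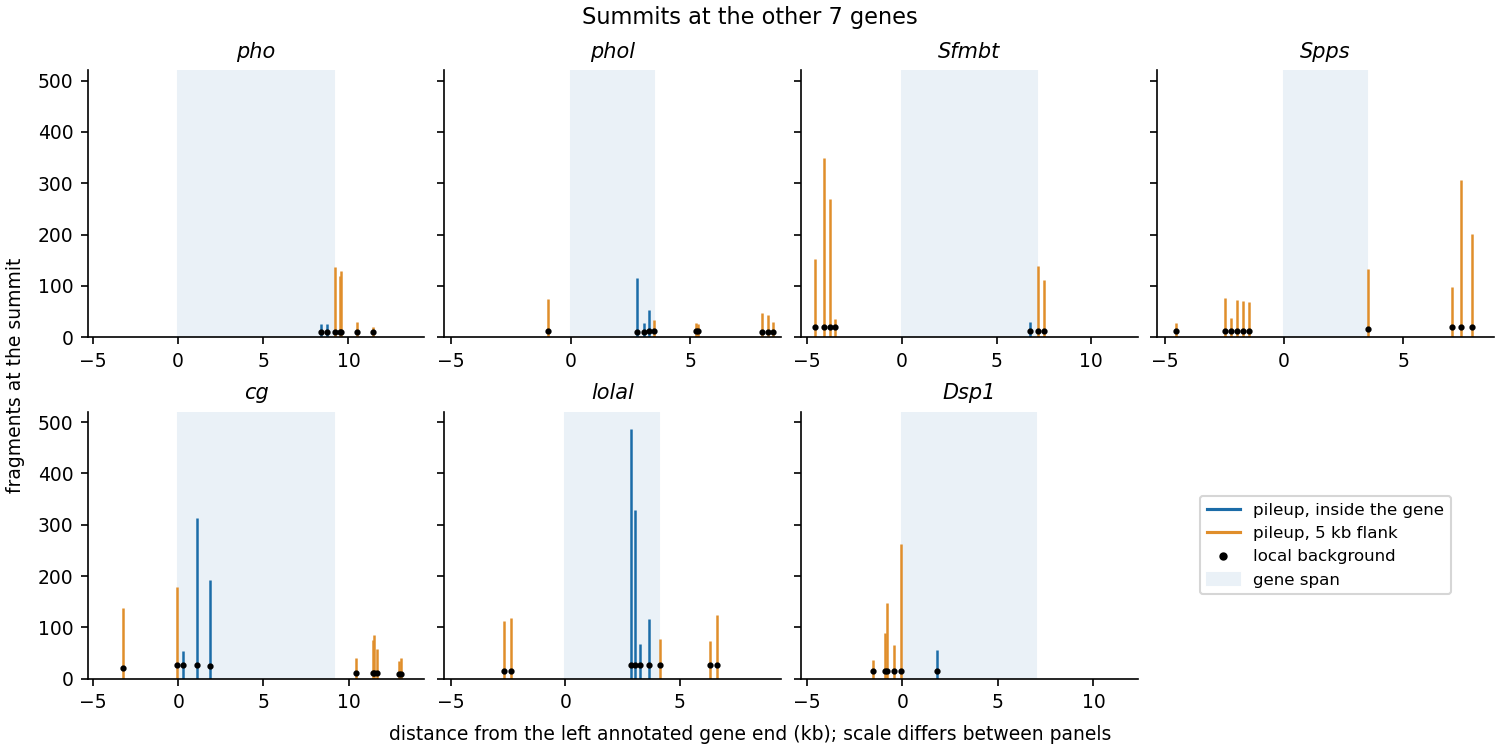
The same quantities for the other 7 genes, with pileup as lines and local background as dots in fragments and distance in kb from the left annotated end. The tallest lines are inside the gene for phol, cg and lolal (115, 313 and 486), and outside it for pho, Sfmbt, Spps and Dsp1.

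The end peak and the strongest site ordered these genes differently. The pileup of the highest end peak ranged from 20 at Trl and 25 at grh to 263 at Dsp1 and 344 at psq, with a median of 135, against 98 over the 8421 protein-coding genes with such a peak. It was above 98 for 6 of the 10. Some genes with high internal sites had low end peaks: Trl with 374 inside and 20 at the end, grh with 422 and 25, and lolal with 486 and 78. This did not hold for cg, with 313 inside and 179 at the end. A low end peak was also found at phol, 53, where the highest internal site had only 115. For psq the internal and end values, 382 and 344, had overlapping intervals. The summit of 344 lay 309 bp past the right end and 73 bp from an end of CG11883. At the left end of psq the highest peak had 152 fragments.

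Of the 164 summits 100 lay inside the member genes, or 61.0%, and 53 of those belonged to psq. Without psq the share inside was 47.0%. Farther than 250 bp from every protein-coding gene end, yet inside a member, were 95 summits, or 57.9%. Within 250 bp of the member's own end lay 11 summits (6.71%), and 31 (18.9%) lay within 250 bp of another gene's end alone. No shares by position are given over all summits, and the part of gene length in those of the members was not tested. Intervals with several summits held 85 of the 164 (51.8%), against 34.9% of all summits, and 40 of the 100 without psq. Summits of 1 gene are not independent of each other, so no interval is given on these shares. The genome-wide background was found at 32 of the 164 (19.5%) and at 30.9% of all summits.

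The density of sites varied less than their number. It ran from 3.53 summits per 10 kb of region at Dsp1 and 3.65 at pho to 7.79 at Trl and 9.22 at psq. The median over the 10 was 6.06, against 3.65 over all protein-coding genes. The next lowest values were those of Sfmbt (4.08) and grh (4.26), whose 22 summits were spread over a region of 51.7 kb. The short genes phol and Spps had 7.42 and 7.41, mostly from their neighbours, which lay in their flanks. Counting only the gene itself, with no flank, the median over the 10 fell to 3.56, and that over all protein-coding genes to 0.

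**Figure D5:**
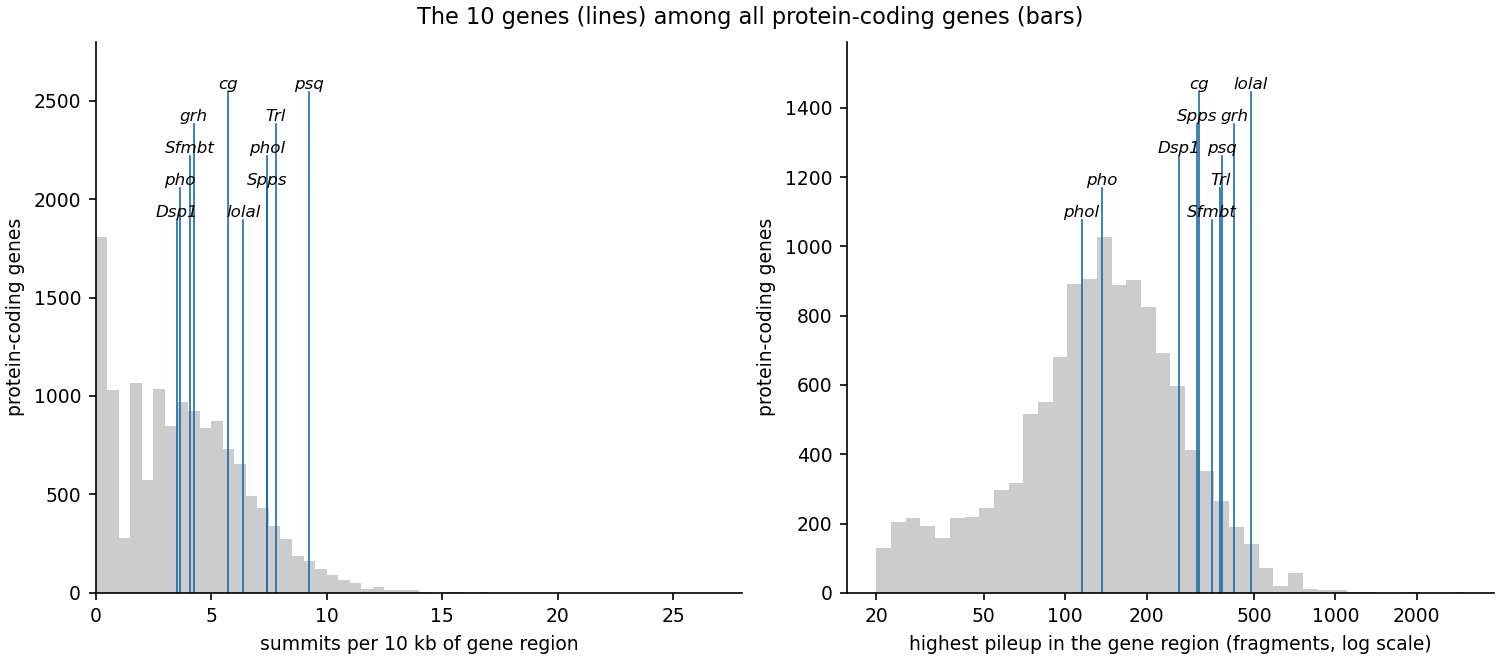
Number of protein-coding genes (bars) by summits per 10 kb of the gene with its 5 kb flanks (left) and by the highest pileup there (right, fragments, log scale, genes with a summit), with the 10 genes as labelled lines. The 10 genes run from 3.53 to 9.22 per 10 kb and from 115 to 486 fragments, where the bars have medians of 3.65 and 137.

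The genes of the complexes that these factors recruit are given beside them without a test. All 8 genes of PRC2 and its accessory factors and all 11 matched genes of PRC1 and other Polycomb proteins had a peak at an end, as all 10 binding factors did. These counts, and that of the looser list below, stand against 60.4% of all protein-coding genes. The difference was not tested. The median of the highest pileup per gene region was 162.5 for the PRC2 list, 238 for the PRC1 list and 331.5 for the binding factors. The last value included sites at neighbours and became 214 with no flank. No value without flanks is given for the PRC2 and PRC1 lists. The highest end peaks were at esc (350), a PRC2 subunit gene, and jing (223), an AEBP2 relative, and in the PRC1 list at the neighbours Su(z)2 (483) and Psc (470). Medians of the end peak alone were 133.5, 203 and 135 in the same order. A looser list of 11 other DNA-binding factors, some only proposed at response elements, had a peak at an end in 10, led by the homeodomain gene en (339) and the Sp-family gene btd (291). The exception was wor, a Snail-family gene, which had no summit in its region.

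Marker genes of hemocytes, which S2 cells resemble, were open in most cases, read against the 60.4% of all protein-coding genes. Of 12 hemocyte genes 11 had a peak at an end, led by zfh1 (682) and the scavenger receptor gene crq (346), and vkg, a collagen gene, had 12 summits inside and none at an end. Of 10 epidermal genes 3 did, led by snsl (262) and knk (33), while Ddc, kkv, ovo and ple were among those without. Of 9 neuronal genes 3 did, led by elav (240) and brp (84), and CadN, Rdl, cac and futsch were among those without. These shares stand beside the single high site within grh, whose protein is known from the epidermis, and whether grh was transcribed in these cells was not measured.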

How the data were processed

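ATAC-seq peaks of S2 cells were analysed from 1 deposited list made from 2 libraries (12 PCR cycles each, per the labels). The submitters' processing notes name Bowtie2, MACS2, deepTools and dm6. Their versions, pooling of libraries, duplicate removal and the Tn5 shift, not given in the sources used here, could move a summit or its height. The deposited score column was not used. The deposited fold (a ratio), −log10 p and −log10 q columns, as the authors gave them, were used per peak. From fold and −log10 p, the whole pileup and the background were solved from the Poisson upper-tail probability, with 1 added to pileup and background in the fold (residual under 0.001). On 3000 simulated summits 3000 pileups were recovered. Whether the caller counted fragments or extended reads was not settled, so the unit follows the peak names. In 65 lines no summit was placed, 1 of them at a member, and the middle of the interval was used.

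Gene spans came from a RefSeq table of Release 6 plus ISO1 MT, the assembly of dm6, with 13946 protein-coding genes and no strand or exons. A peak counted at an end when it overlapped the 250 bp on either side by 1 bp. Percentiles are over all protein-coding genes, with genes lacking a summit at 0. No test was run, because 1 list leaves no replicates. The members and lists were chosen with earlier results of these data known. All 10 members are named, and in each other list the 2 highest end peaks and up to 4 genes without one. One listed symbol, calypso, had no match and 2 were matched by synonym. Blocks in psq were set after its values were seen. The planned motif counts were not run. The number of columns of other samples left out was 0. Python 3.11.15, numpy 2.4.6, pandas 2.3.3, scipy 1.17.1 and matplotlib 3.10.9 were used.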

Additional observations from a re-analysis of the deposited data

How the results depend on the processing

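The count of members with a peak at an end stayed between 7 and 10 under all 9 alternatives. With a window of 100 bp psq had none, and the share over all protein-coding genes was 53.8%. That share was 66.0% at 500 bp and 71.9% at 1000 bp, where all 10 members had a peak. Trl and grh had none when the −log10 q had to reach 10, where 53.1% of all genes had one. When the fold had to reach the list's median lolal in addition had none, against 51.3% of all genes with one. Without summits inside another protein-coding gene Sfmbt, Trl and Dsp1 had none, and no all-gene share is given for that setting. The 164 summits became 100 with no flank, 85 with the fold limit and 100 without psq, an alternative chosen after the data were seen. The median of the highest pileup, 331.5, became 214 with no flank, 288 with a flank of 2 kb and 208 without summits inside another protein-coding gene. The median density, 6.06 per 10 kb, became 3.56 with no flank, 4.91 with a flank of 10 kb, 3.94 with the −log10 q limit, 3.80 with the fold limit, 4.13 with 1 summit per interval and 3.67 without summits inside another gene; over all genes it was 0 with no flank, 2.10 with the −log10 q limit and 3.25 with 1 summit per interval. The share inside, 61.0%, became 100% with no flank (by construction), 76.3% with 2 kb, 51.0% with 10 kb, 52.9% with the fold limit, 75.2% without summits inside another gene and 47.0% without psq. No paired analysis was possible because the list holds no values per library, and leaving out a library was not run for the same reason. Pileups near the list's lower limit of 20 fragments, such as the end peak of Trl, rest on few counts.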
